A study of Homo sapiens with 4 samples.

Results

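The 38 genes described here belong to the ATF4 arm and the endoplasmic reticulum (ER) arm of the cellular stress responses. They are a list of known pathway members, found by summing the deposited transcript values per gene, and all 38 were among 34500 genes with transcripts and among the 14774 genes that entered the tests. The genes fall into 18 of the ATF4 arm, 4 of stress sensing (the 3 ER sensors and XBP1, the target of one of them) and 16 of the ER arm, of which 12 are chaperones or folding enzymes and 4 serve ER-associated degradation. The study asked which transcripts TGF-β1 changes early in MCF10A, human breast epithelial cells that grow without limit in culture and form no tumours. RNA was sequenced from 2 libraries of cells given TGF-β1 at 5 ng/ml for 1.5 h, numbered replicates 1 and 2, and from 2 control libraries without it (0 h), also numbered 1 and 2. All 4 are labelled as stably expressing a scramble shRNA, a control hairpin (PHF8 levels, below, differ between numbers), and were grown with epidermal growth factor, cholera toxin, insulin, hydrocortisone and horse serum. The labels call them biological duplicates of 1 cell line and do not say that a number marks a shared day or batch, so a p-value measures the spread between these libraries.

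Unfolded proteins in the ER are sensed by PERK (gene EIF2AK3), IRE1 (ERN1) and ATF6. PERK phosphorylates the translation factor eIF2α, which lowers protein synthesis in general while the mRNA of ATF4 is translated better, and kinases that sense amino acid shortage, haem shortage or double-stranded RNA meet at the same step. ATF4 switches on genes for amino acid synthesis and uptake, while IRE1 removes a short intron from XBP1 mRNA so that an active XBP1 protein is made, and XBP1 and cleaved ATF6 switch on ER chaperones. Changes in ATF4 protein, in phosphorylation and in ATF6 cleavage are not seen in mRNA levels.

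Promoter sequences that match known ER stress elements are shown because some of the ER genes below hold them. The ER stress response element (ERSE), CCAAT and CCACG with 9 bases of any kind between them, searched on both strands, stood in the RefSeq promoter windows (GRCh38.p14, 250 bases before to 50 after a start site) of 7 of the 34 genes with a window, CALR, CANX, CRELD2, HSP90B1, HSPA5, PDIA6 and XBP1. Of 35116 windows of this length over all genes, 0.0769% held it. Counted by gene, as the members are, 0.0916% of 27305 gene symbols had a window with it. Capitals mark the match, in the direction of the gene, with CGTGG before ATTGG where the match was on the opposite strand. The site ended 48 bases before the start site in HSPA5, 207 in CALR, 62 in CRELD2, 68 in PDIA6 and 34 in XBP1.
HSPA5 (chr9:125241376-125241424, minus strand): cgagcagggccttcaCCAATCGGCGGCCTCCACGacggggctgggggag
CALR (chr19:12938369-12938417, plus strand): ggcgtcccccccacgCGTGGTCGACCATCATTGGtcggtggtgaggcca
CRELD2 (chr22:49918539-49918587, plus strand): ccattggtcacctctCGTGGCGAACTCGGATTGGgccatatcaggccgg
PDIA6 (chr2:10812845-10812886, minus strand): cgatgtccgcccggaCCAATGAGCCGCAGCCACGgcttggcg
XBP1 (chr22:28800598-28800636, minus strand): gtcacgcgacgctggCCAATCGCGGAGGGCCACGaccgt

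The shorter ERSE-II, ATTGG and CCACG with 1 base of any kind between them, stood in the windows of 3 genes, HERPUD1, HYOU1 and SDF2L1. It stood in 0.0541% of all windows and for 0.0696% of gene symbols. HYOU1 held ERSE-II in 2 places. The one farther from the start site also overlaps TGACGTG, the core of the UPR element. That core stood in 1.97% of all windows and for 2.40% of gene symbols. TGATGNAA, the core of the CARE element bound by ATF4 and its partners, stood in ASNS, CHAC1, HERPUD1 and SLC3A2. It stood in 3.62% of all windows and for 4.46% of gene symbols, so it is common. A match describes letters in the window and was not tested as a site.
HYOU1, nearer (chr11:119057259-119057299, minus strand): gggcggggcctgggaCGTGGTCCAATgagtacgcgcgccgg
HYOU1, farther (chr11:119057365-119057405, minus strand): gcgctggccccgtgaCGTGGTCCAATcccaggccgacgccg
HERPUD1 (chr16:56932010-56932047, plus strand): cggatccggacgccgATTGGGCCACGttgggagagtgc
SDF2L1 (chr22:21642099-21642139, plus strand): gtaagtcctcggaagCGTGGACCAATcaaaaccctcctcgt

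The libraries held 35737659 to 40792300 estimated counts. Basal mammary markers, the cell type of MCF10A, were all at 1 CPM or more (counts scaled to library size with TMM factors), whereas the luminal progenitor marker KIT and the T cell marker CD3E were at or near 0. SMAD7, the inhibitory SMAD that TGF-β induces, checks the treatment, with 129 and 100 CPM in TGF-β1 replicates 1 and 2, against 8.58 and 8.27 CPM in control replicates 1 and 2 (DESeq2 adjusted p = 6.27e-47). The main test below, edgeR's, did not call SMAD7 at an adjusted p under 0.05. In both groups the library numbered 2 was unlike the one numbered 1. PHF8, a histone demethylase mentioned in the labels' protocol, had 3.998 and 3.88 CPM in TGF-β1 and control replicates 2, against 20.0 and 20.2 CPM in replicates 1. Ribosomal protein mRNAs took 8.96% and 8.73% of gene counts in TGF-β1 and control replicates 2, against 6.84% and 6.87% in replicates 1. The 10 basal markers summed to 16812 and 14675 CPM in TGF-β1 and control replicates 2, against 21139 and 19945 CPM in replicates 1. Of luminal markers 5 of 10 reached 1 CPM in each library, with a sum of 577 and 541 CPM in TGF-β1 and control replicates 2, against 709 and 741 CPM in replicates 1. Fibroblast markers (3 of 10) summed to between 69.7 and 94.5 CPM, mostly FAP and DCN, and those of blood and endothelium (1 or 2 of 10) to between 26.3 and 43.2 CPM, mostly CD14. The part that any of these differences has in the results below was not tested, and what the number stands for cannot be told apart between culture, clone, hairpin, handling and sequencing. All 4 labels say scramble shRNA, and whether that label holds for both numbers is in doubt from the PHF8 levels and was not tested. In bulk RNA, fewer cells with an mRNA and less of it per cell cannot be told apart either.

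By level per transcript length (TPM), the genes spanned from 0.217 TPM for VLDLR, a lipoprotein receptor, to 726 TPM for DDIT4, an inhibitor of the growth kinase mTORC1 (means of the 4 libraries). After DDIT4 came the ER lectin chaperone CANX at 581 ± 14.1 TPM, the ER chaperone HSP90B1 at 426 ± 78.6 TPM, ATF4 at 425 ± 82.0 TPM and the lectin chaperone CALR at 403 ± 138 TPM (SD, n = 4). HSP90B1, ATF4 and CALR did not differ beyond their spread over all 4 libraries, which holds the difference between numbers. Within a number HSP90B1 and ATF4 stood apart, in reversed order. HSP90B1 had 492 and 494 TPM in TGF-β1 and control replicates 1, against 339 and 370 TPM for ATF4. In TGF-β1 and control replicates 2 HSP90B1 had 345 and 372 TPM, against 499 and 491 TPM for ATF4. In all, 12 genes averaged over 100 TPM and 8 under 10 TPM. The death-promoting factor DDIT3 (CHOP) at 7.21 ± 2.04 TPM, the glutathione-degrading enzyme CHAC1 at 1.13 ± 0.250 TPM and PPP1R15A (GADD34), which brings phosphatase to eIF2α, at 7.36 ± 2.46 TPM were among the low ones. Summed over the 18 genes, the ATF4 arm came to 2527 and 2553 TPM in TGF-β1 replicates 1 and 2. Controls 1 and 2 had 2523 and 2443 TPM, a narrow range in which opposite moves of large members offset each other. DDIT4 had 975 and 840 TPM in TGF-β1 and control replicates 2, against 531 and 557 TPM in replicates 1. SLC7A5 had 226 and 199 TPM in TGF-β1 and control replicates 2, against 493 and 420 TPM in replicates 1. ATF4 was higher and SLC3A2 lower in replicates 2 too. The 12 chaperones and folding enzymes summed to 2598 and 1878 TPM in TGF-β1 replicates 1 and 2, against 2610 and 1981 TPM in controls 1 and 2, so both sums numbered 2 lay below both numbered 1.

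The first comparison asks whether TGF-β1 moved these genes by 1.5 h. None passed the threshold of either test. edgeR's quasi-likelihood test, the main test, called 0 of the 38 at a Benjamini-Hochberg adjusted p under 0.05. Of all 14774 genes it called 0% (255 at an unadjusted p under 0.05). As edgeR called no gene at all, SMAD7 included, its 0 of the 38 cannot show that these genes were unmoved. DESeq2's Wald test called 0 of the 38 too, where it called 90 of 19649 genes, 0.458%. At an unadjusted edgeR p under 0.05 there were 0 of the 38, and the smallest was 0.0593, for DDIT3. The log2 fold change lay within 0.3 of 0 in either direction for 36 of them, and the median was -0.01 in the ATF4 arm, -0.01 in the ER arm and -0.01 over all tested genes.

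Both exceptions beyond that limit were lower in TGF-β1 cells without passing edgeR's main test or DESeq2's. PPP1R15A had 7.13 and 11.7 CPM in TGF-β1 replicates 1 and 2, against 12.6 and 17.2 CPM in controls 1 and 2. Both TGF-β1 libraries lay below both controls, and the gap between numbers was about as wide as that between groups. Its log2 fold change was -0.66 ± 0.32 (approximate SE, edgeR unadjusted p = 0.104, adjusted p = 1.00), with -0.82 within replicates 1 and -0.55 within replicates 2. DDIT3 had 3.58 and 2.84 CPM in TGF-β1 replicates 1 and 2, against 4.86 and 5.24 CPM in controls 1 and 2. These groups did not overlap either. Its log2 fold change was -0.65 ± 0.26 (edgeR adjusted p = 1.00), with -0.43 within replicates 1 and -0.87 within replicates 2. DDIT3 shares up to 287 bases of exon with the methionyl-tRNA synthetase gene MARS1 on the opposite strand, which reached 192 CPM, and the strand setting of the counting is not given in the sources used here.

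Within each number, where 1 library stands against 1 and no test is possible, 15 of the 38 had the same sign in both numbers, 5 of them positive and 10 negative, and 23 had opposite signs. The TGF-β1 libraries lay above both controls in 0 genes and below both in 3, PPP1R15A, DDIT3 and ERN1, against 7.87% and 8.34% of all tested genes. For ERN1 that separation was small, with 13.7 and 13.6 CPM in TGF-β1 replicates 1 and 2, against 14.0 and 13.8 CPM in controls 1 and 2. SLC7A5, the light chain of the leucine transporter LAT1, had the largest positive difference shared by both numbers, 0.25 within replicates 1 and 0.23 within replicates 2. It had 1508 and 735 CPM in TGF-β1 replicates 1 and 2, against 1267 and 628 CPM in controls 1 and 2, so its groups overlapped through the number. ATF4 itself had 317 and 496 CPM in TGF-β1 replicates 1 and 2, against 346 and 469 CPM in controls 1 and 2, with overlapping groups and differences of -0.13 within replicates 1 and 0.08 within replicates 2. Its log2 fold change of -0.003 ± 0.29 and that of the main ER chaperone HSPA5 (BiP), -0.10 ± 0.32, carry errors that leave room for changes of moderate size. These errors also hold the difference between numbers, for which the main fit had no term. HSPA5 had differences of -0.13 within replicates 1 and -0.05 within replicates 2. Fits with the number as a block are given in the last section. The absolute difference within a number had a median of 0.06 over the 38 genes.

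**Figure D1:**
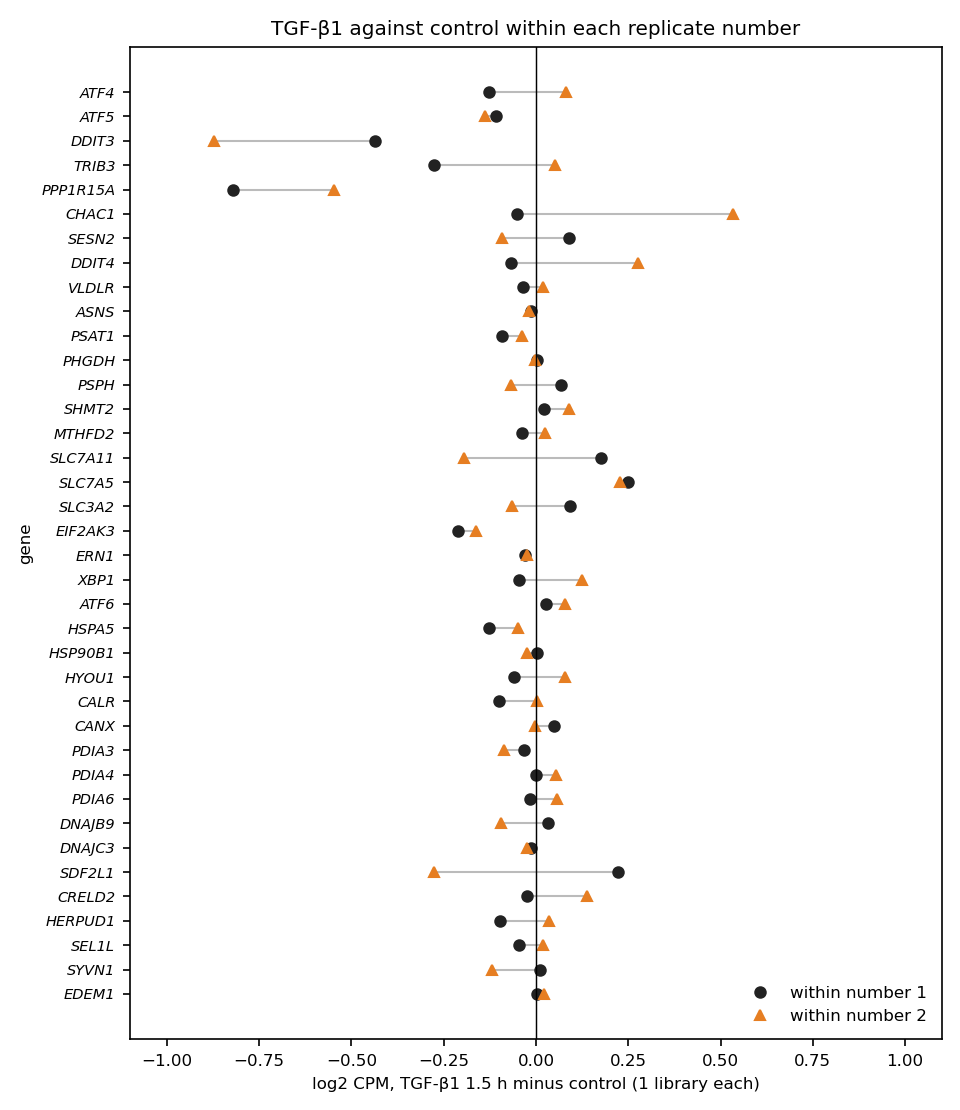
Difference of log2 CPM, TGF-β1 1.5 h minus control, for each of the 38 genes, with 1 library on each side; circles are replicates 1 and triangles replicates 2. Most genes lie near 0 in both numbers, while PPP1R15A (-0.82 and -0.55) and DDIT3 (-0.43 and -0.87) lie lowest in both.

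The other genes of these pathways gave the same counts. Of 7 further genes of eIF2 control, 38 further ATF4 targets and 48 further ER genes tested, edgeR called 0, 0 and 0 after TGF-β1, and DESeq2 0, 0 and 0. At an unadjusted edgeR p under 0.05 there were 2, both ATF4 targets. The stress-induced repressor ATF3 had 3.89 and 4.26 CPM in TGF-β1 replicates 1 and 2, against 2.57 and 2.18 CPM in controls 1 and 2 (log2 fold change 0.78 ± 0.26, edgeR adjusted p = 1.00). CEBPB, a leucine-zipper factor, had 139 and 151 CPM in TGF-β1 replicates 1 and 2, against 78.7 and 106 CPM in controls 1 and 2 (log2 fold change 0.65 ± 0.18, edgeR adjusted p = 1.00). Neither gene's groups overlapped.

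The second comparison sets the libraries numbered 2 against those numbered 1, with 1 TGF-β1 and 1 control library in each, and describes how the genes differ between libraries that the labels give as duplicates. Whether a difference in the cells, such as that of PHF8, goes with the number by design is not given. Of 12 ER chaperones and folding enzymes 8 fell in the libraries numbered 2 (21.0% of all tested genes did), among them CALR 1.77-fold, HYOU1 1.56-fold and HSPA5 1.55-fold lower, and both chains of the leucine transporter fell farther, SLC7A5 2.04-fold and SLC3A2 1.93-fold. ATF4 rose 1.46-fold and DDIT4 1.74-fold. By edgeR 3 of the 38 genes were higher and 14 lower at an adjusted p under 0.05, where 37.4% of all tested genes were called, 16.4% higher and 21.0% lower. The count of 17 is thus not far from the share over all genes. DESeq2 called 2 higher and 13 lower, where it called 34.1% of its tested genes, 13.4% higher and 20.7% lower. Without overlap between numbers, 12 genes were higher and 18 lower, against 35.9% and 36.6% of all tested genes. The ATF4 arm held 3 higher and 5 lower of 18 with a median log2 fold change of 0.06, the sensors with XBP1 0 of 4, and the ER arm 0 higher and 9 lower of 16 with a median of -0.31, against a median of 0.01 over all tested genes.

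**Figure D2:**
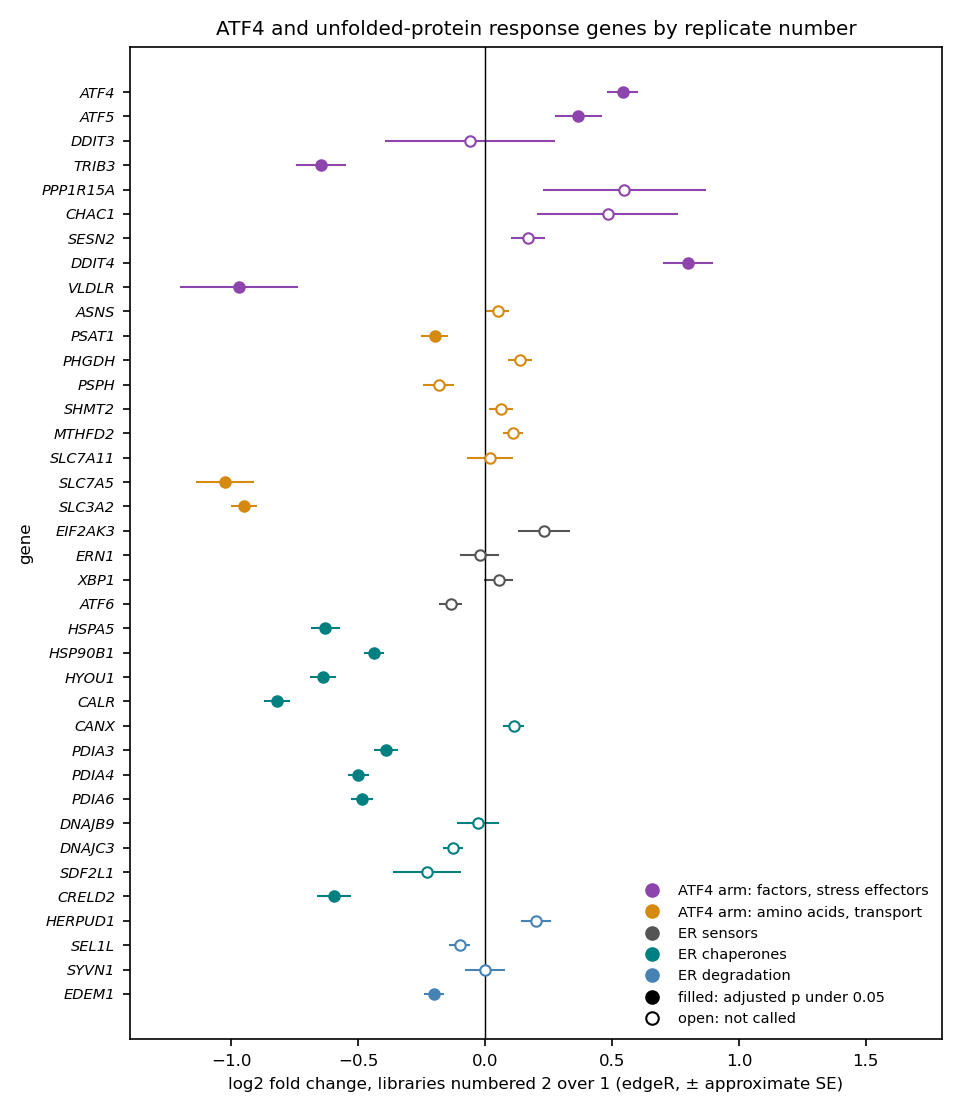
Log2 fold change of the libraries numbered 2 over those numbered 1 for each of the 38 genes (edgeR, n = 2 libraries each, bars are the approximate SE); filled symbols passed an adjusted p under 0.05 and colours give the role. Of the 12 chaperones 8 are filled and lie left of 0, while the ATF4 arm has filled symbols on both sides.

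Among the transcription factors and stress effectors of the ATF4 arm, called genes lay on both sides. ATF4 (chromosome 22, 39519695 to 39522685) had 496 and 469 CPM in TGF-β1 and control replicates 2, against 317 and 346 CPM in replicates 1. Both libraries numbered 2 lay above both numbered 1, and the gap was wider than that within either number. The log2 fold change of ATF4 was 0.54 ± 0.06 (edgeR adjusted p = 0.00358), with 0.65 in TGF-β1 and 0.44 in control cells. DDIT4 (chromosome 10, 72273920 to 72276036) had 1181 and 974 CPM in TGF-β1 and control replicates 2, against 605 and 634 CPM in replicates 1. Again the numbers did not overlap, with a log2 fold change of 0.80 ± 0.10 (edgeR adjusted p = 0.00442). ATF5, a factor related to ATF4, had 14.7 and 16.2 CPM in TGF-β1 and control replicates 2, against 11.5 and 12.4 CPM in replicates 1. edgeR called it higher (adjusted p = 0.0345), but DESeq2 did not (0.0587), and edgeR did not in any fit without 1 of the 4 libraries.

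TRIB3, a pseudokinase induced by ATF4 and CHOP, moved the other way. It had 86.0 and 83.0 CPM in TGF-β1 and control replicates 2, against 120 and 145.0 CPM in replicates 1. The log2 fold change of TRIB3 was -0.65 ± 0.10 (edgeR adjusted p = 0.00749). VLDLR was near the limit of detection, with 0.637 and 0.628 CPM in TGF-β1 and control replicates 2, against 1.23 and 1.26 CPM in replicates 1. edgeR called it lower (adjusted p = 0.0290), while DESeq2 did not (0.147), nor did edgeR without any 1 of the 4 libraries. DDIT3, PPP1R15A, CHAC1 and SESN2, a leucine sensor that restrains mTORC1, passed neither test. With treatment as a covariate PPP1R15A was called higher by edgeR (0.57, adjusted p = 0.00492) and by DESeq2 (0.56, adjusted p = 0.0471). The numbers overlapped for DDIT3 (log2 fold change -0.06 ± 0.34) and PPP1R15A (0.55 ± 0.32). CHAC1 had 1.56 and 1.06 CPM in TGF-β1 and control replicates 2, against 0.92 and 0.956 CPM in replicates 1, all resting on few counts.

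**Figure D3:**
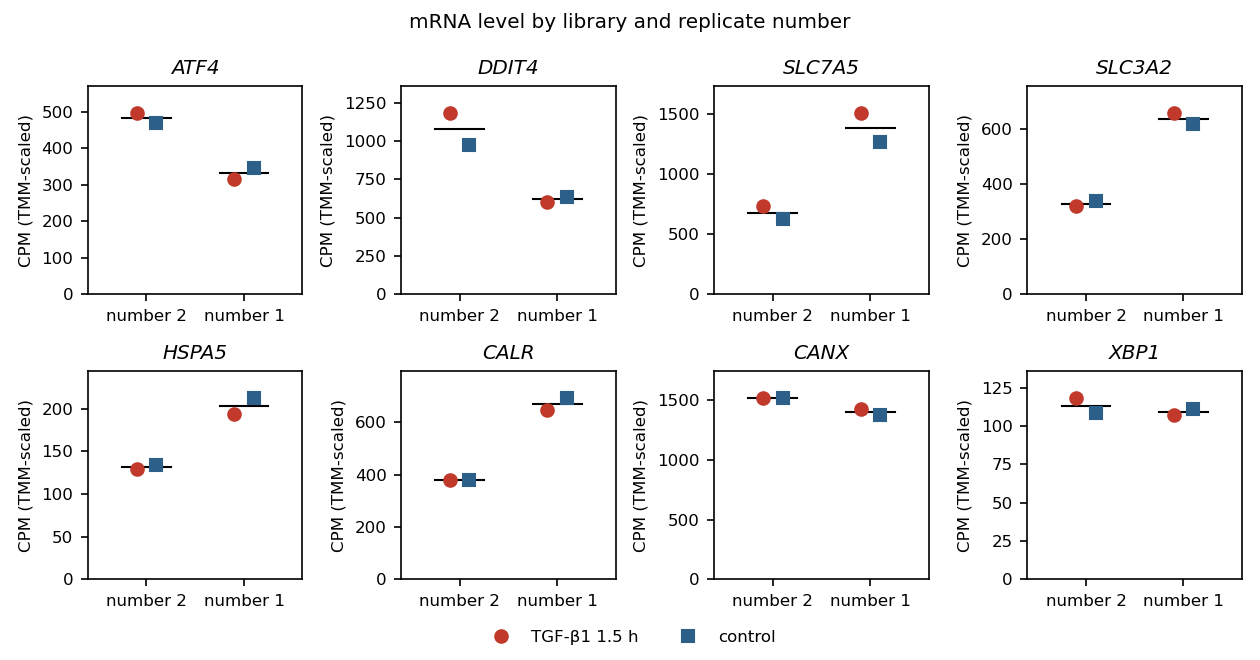
CPM of 8 genes in each of the 4 libraries, by replicate number; circles are TGF-β1, squares control, and the bar is the mean of the 2 libraries with that number. SLC7A5, SLC3A2, HSPA5 and CALR are lower in both libraries numbered 2, ATF4 and DDIT4 higher, CANX and XBP1 close to level.

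Of the 9 amino acid genes, edgeR called 3 lower and 0 higher, where 21.0% and 16.4% of all tested genes were lower and higher. The 3 were SLC7A5, SLC3A2 and PSAT1. SLC7A5 (chromosome 16, 87830023 to 87869488) had 735 and 628 CPM in TGF-β1 and control replicates 2, against 1508 and 1267 CPM in replicates 1. SLC3A2 (chromosome 11, 62856102 to 62888875), the CD98 heavy chain that carries SLC7A5 to the cell surface, had 323 and 338 CPM in TGF-β1 and control replicates 2, against 659 and 619 CPM in replicates 1. Both chains were thus lower in each library numbered 2, with log2 fold changes of -1.03 ± 0.11 for SLC7A5 and -0.95 ± 0.05 for SLC3A2 (edgeR adjusted p = 0.00347 and 0.00108). SLC7A11, which imports cystine and also pairs with SLC3A2, had 102 and 116 CPM in TGF-β1 and control replicates 2, against 114 and 101 CPM in replicates 1. Its numbers overlapped, with a log2 fold change of 0.02 ± 0.09, not called.

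Of the enzymes of serine, glycine and asparagine synthesis, PSAT1, the serine pathway aminotransferase, was the one that edgeR called. PSAT1 had 54.8 and 56.2 CPM in TGF-β1 and control replicates 2, against 61.7 and 65.8 CPM in replicates 1. That is a small difference, -0.20 ± 0.05 on the log2 scale (edgeR adjusted p = 0.0363), and the edgeR call ended without TGF-β1 replicate 2, control replicate 1 or control replicate 2. PHGDH and PSPH, the first and last enzymes of that pathway, had log2 fold changes of 0.14 ± 0.05 and -0.18 ± 0.06, and both were without overlap yet not called (edgeR adjusted p = 0.0728 and 0.0671). The mitochondrial folate enzymes SHMT2 and MTHFD2 had 0.06 ± 0.05 and 0.11 ± 0.04, and the asparagine synthetase ASNS had 0.05 ± 0.05. Where only genes with 50 counts in 2 or more libraries were kept, edgeR called PHGDH and MTHFD2 higher. The values were 0.17 (adjusted p = 0.0360) for PHGDH and 0.14 (adjusted p = 0.0421) for MTHFD2. ASNS, a gene often used to read ATF4 activity, had 40.8 and 41.4 CPM in TGF-β1 and control replicates 2, against 39.5 and 39.9 CPM in replicates 1, a difference of the size of its error. For SHMT2 and MTHFD2 the leading transcript by TPM was one that GENCODE classes as subject to nonsense-mediated decay, as it was for PDIA3, so gene sums there add coding and other forms. Gene copies that could share reads and carry a member's symbol followed by P and a number were low, at most 1.48 CPM for PDIA3P1. Copies under other names were not looked up.

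The sensors and XBP1 held 0 called genes by edgeR's main test and by DESeq2, where edgeR called 37.4% of all tested genes. EIF2AK3 had 22.0 and 24.6 CPM in TGF-β1 and control replicates 2, against 18.4 and 21.3 CPM in replicates 1. Its log2 fold change was 0.23 ± 0.10 (edgeR adjusted p = 0.137). With treatment as a block edgeR called it higher (0.23, adjusted p = 0.0385). ATF6 had 120 and 114 CPM in TGF-β1 and control replicates 2, against 130.0 and 128 CPM in replicates 1, with -0.14 ± 0.05 (edgeR adjusted p = 0.0735). ERN1 had -0.02 ± 0.08. XBP1 had 118 and 108 CPM in TGF-β1 and control replicates 2, against 107 and 111 CPM in replicates 1, with overlapping numbers and 0.05 ± 0.06.

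XBP1 transcripts with and without the short intron were separate entries in the deposited tables. The intron is 26 bases long (GRCh38, chr22:28796124-28796149, minus strand), and it is in capitals in the first line below. The sequences are shown because the forms read on in different frames. XBP1-202 places the same excision slightly further along, and the joined sequence is the same.
XBP1, with the intron (chr22:28796104-28796169, minus strand): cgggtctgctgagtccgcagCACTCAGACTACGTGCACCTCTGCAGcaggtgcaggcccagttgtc
XBP1, without it: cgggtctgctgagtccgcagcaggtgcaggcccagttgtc
The form without the intron took 28.0% and 24.6% of coding XBP1 TPM in TGF-β1 replicates 1 and 2, against 27.5% and 20.9% in controls 1 and 2. Both libraries numbered 2 lay below both numbered 1, and the TGF-β1 library lay above its control by more in replicates 2 than in replicates 1, with overlapping groups. In TPM the form without it was at 21.3 and 17.5 TPM in TGF-β1 and control replicates 2, against 23.8 and 23.9 TPM in replicates 1, while the form with it was at 65.3 and 66.3 TPM in replicates 2, against 61.3 and 63.2 TPM in replicates 1. These are kallisto's assignments, which also use differences at the transcript ends, not counts of reads across the junction, and no test was made.

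**Figure D4:**
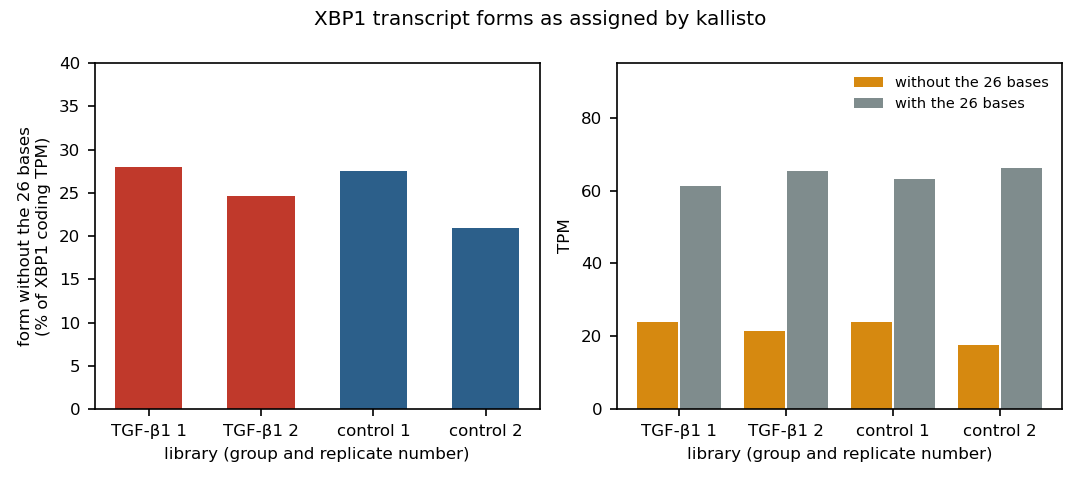
XBP1 forms by library: left, the form without the 26-base intron as a percent of coding XBP1 TPM; right, the TPM of both forms, 1 library per bar or pair of bars and no error bars. The share is 28.0% and 24.6% in TGF-β1 replicates 1 and 2, against 27.5% and 20.9% in controls 1 and 2.

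Among the 12 chaperones and folding enzymes, 8 fell in the libraries numbered 2 and 0 rose, by edgeR and by DESeq2, against 21.0% of all tested genes lower by edgeR. CALR (chromosome 19, 12938578 to 12944489), a calcium-binding lectin chaperone, had 379 and 378 CPM in TGF-β1 and control replicates 2, against 645 and 692 CPM in replicates 1. Its log2 fold change was -0.82 ± 0.05 (edgeR adjusted p = 0.00111), and the difference was -0.77 in TGF-β1 and -0.87 in control cells. HSPA5 (chromosome 9, 125234853 to 125241330), the HSP70 of the ER that also restrains the sensors, had 129 and 133 CPM in TGF-β1 and control replicates 2, against 194 and 212 CPM in replicates 1. For HSPA5 the log2 fold change was -0.63 ± 0.06 (edgeR adjusted p = 0.00223). The numbers were far apart compared with the spread within them in both genes.

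HYOU1, an HSP110-related exchange factor for HSPA5, had 77.2 and 73.1 CPM in TGF-β1 and control replicates 2, against 115 and 119 CPM in replicates 1 (log2 fold change -0.64 ± 0.05, edgeR adjusted p = 0.00168). HSP90B1, the HSP90 of the ER (GRP94), had 702 and 715 CPM in TGF-β1 and control replicates 2, against 962 and 960.1 CPM in replicates 1 (-0.44 ± 0.04, edgeR adjusted p = 0.00215). The disulfide isomerases PDIA4, PDIA6 and PDIA3 fell too, with log2 fold changes of -0.50 ± 0.04, -0.49 ± 0.04 and -0.39 ± 0.05. PDIA4 had 215 and 207 CPM in TGF-β1 and control replicates 2, against 298 and 298 CPM in replicates 1, so its replicates 1 were level with each other. CRELD2, a small secreted ER protein, had 23.4 and 21.3 CPM in TGF-β1 and control replicates 2, against 33.5 and 34.1 CPM in replicates 1 (-0.60 ± 0.07, edgeR adjusted p = 0.00358). Its call ended with transcript lengths as an offset (edgeR adjusted p = 0.0741), and the gene shares exon bases with ALG12 on the opposite strand.

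Not every chaperone fell. CANX, the membrane-bound relative of CALR, had 1512 and 1514 CPM in TGF-β1 and control replicates 2, against 1424 and 1377 CPM in replicates 1, so its libraries numbered 2 were the higher ones. Its log2 fold change was 0.11 ± 0.04, not called (edgeR adjusted p = 0.0885), while edgeR called it higher where only genes with 50 counts in 2 or more libraries were kept (0.14, adjusted p = 0.0456), and it turned to -0.014 in limma on log2(TPM + 1). DNAJB9 and DNAJC3, HSP40 cochaperones of HSPA5, and SDF2L1, a part of a DNAJ complex of the ER, had -0.03 ± 0.08, -0.13 ± 0.04 and -0.23 ± 0.13 and passed neither test. DNAJC3 was without overlap, with 125.0 and 127 CPM in TGF-β1 and control replicates 2, against 137 and 138 CPM in replicates 1 (edgeR adjusted p = 0.0569). DNAJC3 was called lower by limma on log2(TPM + 1) (adjusted p = 0.0460) and by edgeR with the length offset (adjusted p = 0.0493). Of the 7 genes with an ERSE in the window, 5 fell, CALR, CRELD2, HSP90B1, HSPA5 and PDIA6, and CANX and XBP1 were not called. All of these but XBP1 are among the 12 chaperones and folding enzymes, of which 8 fell. Of all tested genes 21.0% were lower. Whether a fall goes with the element was not tested. PDIA3, which has no window here, and PDIA4, with no match, fell too. Of the 3 with ERSE-II, HYOU1 fell and HERPUD1 and SDF2L1 were not called.

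In ER-associated degradation, which returns misfolded proteins to the proteasome, edgeR called 1 of 4 genes, against 37.4% of all tested genes. EDEM1, a mannosidase-like protein that marks glycoproteins for disposal, had 117 and 115 CPM in TGF-β1 and control replicates 2, against 133 and 133 CPM in replicates 1 (log2 fold change -0.20 ± 0.04, edgeR adjusted p = 0.0155). The edgeR call ended in each of the 4 fits without 1 library. SEL1L and SYVN1 (HRD1), the scaffold and the ubiquitin ligase of the retrotranslocation complex, had -0.10 ± 0.04 and -0.001 ± 0.08, neither called. HERPUD1, a membrane protein that binds that complex and is induced by ATF4 and ATF6, had 33.3 and 32.5 CPM in TGF-β1 and control replicates 2, against 27.7 and 29.6 CPM in replicates 1. It was higher without overlap and not called by the main test (0.20 ± 0.06, edgeR adjusted p = 0.0515). HERPUD1 was called higher by edgeR where only genes with 50 counts in 2 or more libraries were kept (0.23, adjusted p = 0.0319). With treatment as a block edgeR called it higher too (0.20, adjusted p = 0.0433). SYVN1 shares exon bases with FAU on the same strand and MRPL49 on the opposite one, so its level is uncertain.

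Of the 17 genes that edgeR called between numbers, 13 were called in each fit without 1 library by edgeR and by DESeq2. These were ATF4, DDIT4, TRIB3, SLC7A5, SLC3A2, HSPA5, HSP90B1, HYOU1, CALR, PDIA3, PDIA4, PDIA6 and CRELD2. The matching share over all called genes is not given here, so this does not set these genes apart from others. ATF5, VLDLR, PSAT1 and EDEM1 were lost in at least 3 of edgeR's 4 fits.

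The further pathway genes also differed between numbers, as did 37.4% of all tested genes. Of 7 genes of eIF2 control, edgeR called 2 higher and 1 lower. These were EIF2S1, which encodes eIF2α itself, at 0.32 ± 0.04, the haem-regulated kinase EIF2AK1 at 0.19 ± 0.05 and the amino acid sensor EIF2AK4 (GCN2) at -0.16 ± 0.04 on the log2 scale. Of 38 further ATF4 targets 8 were higher and 9 lower, against 16.4% and 21.0% of all tested genes, with a median log2 fold change of -0.01. The lower ones included the aspartate aminotransferase GOT1 (-0.60), the glycine transporter SLC6A9 (-0.79) and the aminoacyl-tRNA synthetases AARS1 (-0.40), MARS1 (-0.38), WARS1 (-0.36) and TARS1 (-0.28). The higher ones included the stress protein NUPR1 (0.88), the cytokine GDF15 (0.72), the alanine aminotransferase GPT2 (0.48), and ALDH1L2 (0.39), MTHFD1L (0.29) and ALDH18A1 (0.26), enzymes of folate and proline metabolism. Targets of ATF4 were thus found on both sides.

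Of 48 further ER genes tested, edgeR called 5 higher and 17 lower, with a median log2 fold change of -0.13, against 16.4% and 21.0% of all tested genes and their median of 0.01 (DERL3 was not tested for low counts). SPCS3, a subunit of signal peptidase, which trims proteins entering the ER, had 101 and 105 CPM in TGF-β1 and control replicates 2, against 262 and 265 CPM in replicates 1. That is -1.35 ± 0.04 on the log2 scale (edgeR adjusted p = 0.000792), more than any of the 38 genes. The secreted ER stress protein MANF (-0.76), the transcription factor CREB3L2 (-0.70), the COPII coat protein SEC23B (-0.59), the isomerase PDIA5 (-0.58) and the translocon subunit SEC61G (-0.39) were lower. The translocon-associated subunits SSR4 (0.32) and SSR2 (0.27), the coat protein SEC31A (0.31), the protease MBTPS2 (0.46), which cuts ATF6, and the folding factor ERP29 (0.21) were higher.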

How the data were processed

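Total RNA was made into rRNA-depleted, stranded libraries and read as 50-bp pairs, per the labels' protocols, although the labels give the molecule as polyA RNA. Per the submitters' processing notes, the authors used kallisto and GRCh38; no version, transcript release or strand setting is given in these sources. The deposited tables give, per the file headers, an estimated count (reads shared among transcripts) and a TPM value (scaled for length) per transcript. Of 173259 transcripts, 159239 (91.9%) matched GENCODE release 29 by identifier and were summed per gene; the rest held 2.24% to 2.38% of a library's counts. Summed counts were rounded to whole numbers. Groups came from the sample titles.

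Main test: edgeR 4.0.16 in R 4.3.3, TMM scaling, filterByExpr, quasi-likelihood test without covariates, Benjamini-Hochberg adjustment over all tested genes, threshold 0.05. Its approximate SE is |log2 fold change| over the root of the F statistic. DESeq2 1.42.0, limma 3.58.1 on log2(TPM + 1), other scaling, filters, length offset, blocks and each library left out were alternatives. Differences within a number used log2 CPM with a prior count of 2. The scripts were tested on simulated data. For the treatment comparison these held no difference between replicate numbers, and for the number comparison none between treatments. All genes were given the same fixed spread. The simulated data thus do not show how the main test performs on the present libraries in either comparison. All 38 genes are described, and further pathway genes are named where edgeR called them, up to 6 per direction and list by smallest p; ATF3 and CEBPB were added after their values were seen. The genes, lists and rules were chosen with earlier results of these data known. Sequences are from RefSeq (GRCh38.p14) promoter windows and GENCODE transcripts; 34 of the 38 had a window. The result of 1 marker gene is not reported here.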

Additional observations from a re-analysis of the deposited data

How the results depend on the processing

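For TGF-β1 against control, edgeR's 0 genes over the whole table became 90 by DESeq2, 15 without a filter, 3 with transcript lengths as an offset, 8 to 25 without 1 library, and 46 to 71 by DESeq2 without 1 library. With the replicate number as a block (replicate block) edgeR called 335 genes (2.27%) and DESeq2 245 (1.58%), among them 1 of the 38 lower by edgeR (PPP1R15A, adjusted p = 0.0241) and 1 higher by DESeq2 (SLC7A5, 0.0157). The numbers are not given as pairs by the labels and there are only 2; across genes, the difference between numbers correlated at 0.66 between the groups, so the block result is a value beside the main one. Fits without 1 library set 1 library against libraries of both numbers. Log2 fold changes that turned sign there included -0.50 to 0.33 (TRIB3), -0.12 to 0.63 (CHAC1), -0.40 to 0.55 (DDIT4) and -0.57 to 0.59 (VLDLR). They also included -0.38 to 0.86 (SLC7A5), -0.57 to 0.56 (SLC3A2) and -0.43 to 0.30 (HSPA5). Further ones were -0.33 to 0.41 (HYOU1), -0.51 to 0.46 (CALR) and -0.27 to 0.23 (SDF2L1). This list is not complete. In ATF4, TGF-β1 replicate 1 (317 CPM) lay below both controls (346 and 469 CPM). Its TGF-β1 replicate 2 (496 CPM) lay above both controls, so the sign of ATF4 turns as well. SEL1L, -0.02 in edgeR, had 0.18 in limma on log2(TPM + 1) and 0.21 with the length offset, not called. For numbers 2 against 1, the 5524 genes became 3513 by DESeq2 with treatment as a block, 3542 by limma, 2599 at an adjusted p under 0.01, 3011 to 4041 without 1 library, and 2325 to 2549 by DESeq2 without 1 library. The 3 higher of the 38 became 7 with at least 50 counts in 2 libraries (PHGDH, MTHFD2, CANX and HERPUD1 added) and 6 in edgeR with treatment as a block (PPP1R15A, EIF2AK3 and HERPUD1 added), and the 14 lower stayed between 11 and 14. ERN1, -0.02 in edgeR, had 0.12 in limma and 0.22 with the length offset, and XBP1 and CANX, 0.05 and 0.11, had -0.012 and -0.014 in limma. Without 1 library, DDIT3 ran from -0.58 to 0.30, SHMT2 from -0.014 to 0.10, SLC7A11 from -0.094 to 0.10 and XBP1 from -0.040 to 0.11, none called. The causes were not tested. VLDLR and CHAC1, near 1 CPM, are limited by their counts.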
